A study of Mus musculus with 6 samples.

Results

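Forming disulfide bonds in the endoplasmic reticulum (ER) is the work of a group of enzymes that was followed here in NIH3T3 mouse fibroblasts treated with forskolin. The group was given as 10 named genes, the protein disulfide isomerases P4hb, Pdia3, Pdia4, Pdia5, Pdia6 and Txndc5, the oxidases Ero1a, Ero1b and Qsox1, and the isomerase-like protein Creld2. Each of the 10 genes had 1 probe set that the array annotation pairs with it alone, and they are 10 of the 16797 genes tested. The measurements are Affymetrix gene arrays of total RNA, given as log2 expression values. NIH3T3 is an immortalized line, called Normal cells in the study, and forskolin (FSK) activates adenylate cyclase and so raises cyclic AMP. The 3 arrays of group N are of cells without FSK, and the 3 arrays of group NF are of cells that received 10 µM FSK at 24 h and 48 h. All were plated in 25 mM glucose, moved to 1 mM glucose and harvested after 72 h of growth in it, so the untreated cells were on low glucose as well. The comparison therefore asks what FSK does to these genes in cells started on 1 mM glucose and harvested once it was used up. A group kept in high glucose is not part of it. The labels call the 3 arrays of a group biological replicates, and all are of 1 cell line. Other samples of the study were not analysed here.

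Secreted and membrane proteins take up their disulfide bonds in the lumen of the ER. Protein disulfide isomerases pass such bonds to a folding protein and reshuffle wrong ones, and the Ero1 oxidases reoxidise the isomerases with molecular oxygen, which yields hydrogen peroxide. When unfolded proteins build up, as when low glucose limits the sugar chains of glycoproteins, the unfolded protein response (UPR) acts through the factors ATF6, XBP1 and ATF4 and can raise several of these enzymes. ATF6 and XBP1 are known to act on the ER stress response element (ERSE), a CCAAT box that lies 9 bases from the letters CCACG, and Ero1a is also known as a gene raised by low oxygen.

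The 250 bases before the start of transcription are shown for the 3 genes whose promoter held the exact letters of the ERSE, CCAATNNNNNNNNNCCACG, and for Ero1a, which did not hold them. They are RefSeq sequences of mouse build GRCm38.p6, written in the direction of the gene. Pdia6 lies at chr12:17266339-17266588 on the forward strand, Creld2 at chr15:88819396-88819645 on the forward strand, Ero1b at chr13:12565633-12565882 on the forward strand and Ero1a at chr14:45318573-45318822 on the reverse strand. Capitals mark the ERSE in the first 3 sequences, where it reads in reverse in Creld2 and Ero1b. In Ero1a they mark the core of the hypoxia response element, ACGTG, which also reads in reverse. The same core in Pdia6, at −13 to −9, is left in lower case.
Pdia6: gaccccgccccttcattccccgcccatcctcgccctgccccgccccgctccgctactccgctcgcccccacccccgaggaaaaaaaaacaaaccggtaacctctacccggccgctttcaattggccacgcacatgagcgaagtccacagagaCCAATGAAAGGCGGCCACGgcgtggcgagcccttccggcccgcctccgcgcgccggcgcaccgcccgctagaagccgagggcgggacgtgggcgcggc
Creld2: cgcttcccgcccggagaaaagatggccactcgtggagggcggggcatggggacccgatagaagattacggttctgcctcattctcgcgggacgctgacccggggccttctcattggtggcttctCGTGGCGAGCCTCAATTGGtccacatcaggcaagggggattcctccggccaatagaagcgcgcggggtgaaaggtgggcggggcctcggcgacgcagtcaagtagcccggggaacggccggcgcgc
Ero1b: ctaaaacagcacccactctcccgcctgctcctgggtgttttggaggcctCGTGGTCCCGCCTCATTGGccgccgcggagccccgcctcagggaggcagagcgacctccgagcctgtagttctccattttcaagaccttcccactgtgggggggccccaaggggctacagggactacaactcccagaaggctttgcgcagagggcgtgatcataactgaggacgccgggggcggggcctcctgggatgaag
Ero1a: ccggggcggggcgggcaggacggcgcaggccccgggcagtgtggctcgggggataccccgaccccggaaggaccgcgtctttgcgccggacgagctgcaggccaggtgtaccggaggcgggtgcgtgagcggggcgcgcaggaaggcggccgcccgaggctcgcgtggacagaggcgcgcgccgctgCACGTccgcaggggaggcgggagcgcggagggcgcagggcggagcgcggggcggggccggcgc

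Promoters were searched on both strands from 250 bases before to 50 bases after the start. The RefSeq table held 12 promoters for the 10 genes, 3 of them for Txndc5. The ERSE was found in 3 of the 12, 1 in each of 3 genes, against 0.119% of the 32851 promoters of the table. It lay at positions −98 to −80 in Pdia6, −126 to −108 in Creld2 and −201 to −183 in Ero1b, counted from the start of transcription. The related ERSE-II, ATTGGNCCACG, was in none of the 10 genes and in 0.0365% of all promoters. The UPR element TGACGTGG was found in 1 gene, Txndc5, at −138 to −131, against 0.676% of all promoters. The element TGATGNAA, bound by factors of the ATF4 and C/EBP families, was also found in Txndc5 alone, in another of its 3 promoters, against 3.97%. The cyclic AMP response element TGACGTCA, through which CREB acts, was in none of the 10 genes and in 1.79% of all promoters. The hypoxia core ACGTG was in 6 of the 12 promoters (5 genes, P4hb, Pdia5, Pdia6, Txndc5 and Ero1a) against 19.6% of all promoters. CCACG was in 9 of the 12 (8 genes) against 32.8%, and CCAAT in 6 of the 12 (6 genes) against 37.4%. These motifs overlap, since the ERSE is built of CCAAT and CCACG, and TGACGTGG holds both ACGTG and, in reverse, CCACG. A match of letters is a description of these windows and says nothing about which factor was bound in these cells.

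The 6 arrays were alike in their medians, from 3.84 to 3.93. N replicate 1 stood apart, with a standard deviation over probe sets of 2.42 against 2.58 to 2.62 in the others, and with moderately expressed probe sets a median of 0.493 lower than in the other N arrays. Of the fibroblast markers listed, 10 of 12 were measured and 9 lay above the dim bound of 3.70, the median of all probe set means, with Vim at 12.24 in N and 12.29 in NF. Postn was below that bound, and Col3a1 was the one marker that passed the test, being higher in NF by 1.33 (limma adjusted p = 0.0157). Among markers of epithelium, blood, endothelium, muscle and fat, 16 of the 17 measured lay below the bound, the exception being Krt8 close to it.

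No member of the group passed the test at an adjusted p under 0.05 (limma, Benjamini-Hochberg over all probe sets tested), where 2.55% of all genes did, 0.720% being lower and 1.83% higher in NF. At an unadjusted p under 0.05 limma marked 4 of the 10, Ero1a, Pdia4, Pdia6 and Creld2, all with lower means in NF, where 13.8% of all genes were marked in either direction and 5.49% in that one. On the same values the methods' t-test marked 2 of them, Pdia6 and Ero1a, unadjusted, where it marked 11.1% of all genes, and 0 after Benjamini-Hochberg adjustment. The mean was lower in NF for 7 of the 10 genes and for 54.8% of all genes, and the median change was −0.28 on the log2 scale against −0.03 over all genes. In RNA from a whole culture, fewer cells that express a gene and less RNA of it per cell cannot be told apart.

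**Figure D1:**
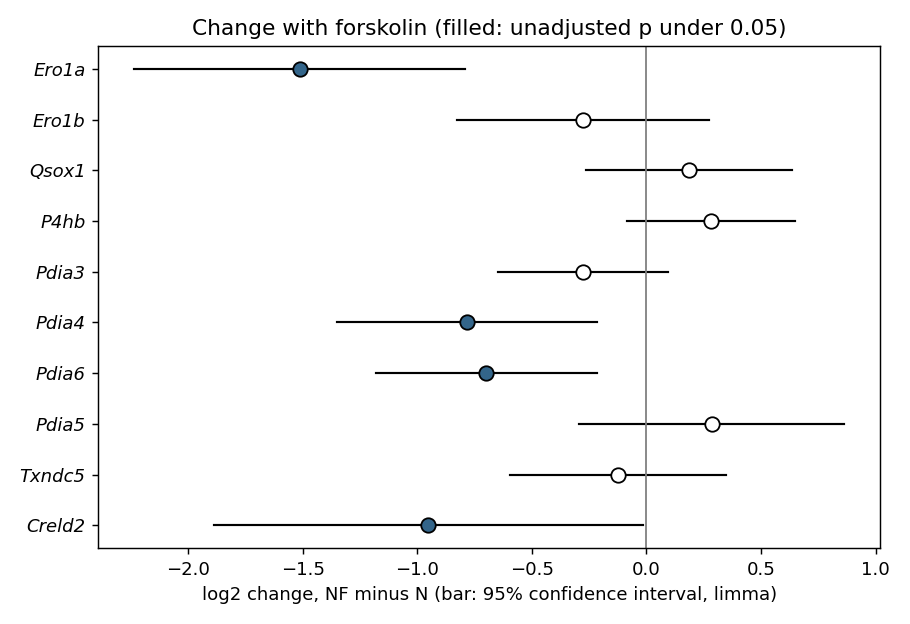
The plot gives, for each of the 10 genes, the log2 change NF minus N (horizontal axis) as a circle with its 95% confidence interval from limma, filled where the unadjusted p is under 0.05. The filled genes are Ero1a, Pdia4, Pdia6 and Creld2, between −1.51 and −0.70, and the intervals of the other 6 genes cross 0.

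Ero1a, the oxidase that drives the isomerases in most cell types, had the largest difference of the group. Its log2 values were 9.90, 10.01 and 10.69 in N replicates 1 to 3, and 8.38, 9.35 and 8.33 in NF replicates 1 to 3. Every NF array lay below every N array, as in 9.70% of all genes (the groups of 20.2% did not overlap in one direction or the other), and NF replicate 2 lay about 1 log2 unit above the other NF arrays. The mean was 10.20 ± 0.43 across the N arrays and 8.69 ± 0.57 across the NF arrays (SD, n = 3 each), a change of −1.51 (SE 0.31, 95% interval −2.24 to −0.79), or 2.85-fold lower. Ranked by change from the lowest, Ero1a was at place 41 of 16797 genes, and its adjusted p from limma was 0.0519, just outside the threshold. Leaving out N replicate 1 gave a limma adjusted p of 0.0194 and leaving out NF replicate 2 gave 0.0244, whereas leaving out NF replicate 3 gave 0.263. The change stayed between −1.99 and −1.27 in the 15 alternatives tried, and 8 of these, counting the unadjusted form of the methods' test, put Ero1a past the threshold.

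Ero1b, the second Ero1 oxidase, best known from the pancreas, was measured near the dim bound, with values of 3.84, 3.70 and 4.59 in N and 3.56, 3.89 and 3.85 in NF. The groups overlapped, N replicate 3 alone standing high, and the change was −0.28 (SE 0.24, limma adjusted p = 0.698). Without N replicate 3 it was −0.0015. Its interval, −0.82 to 0.27, includes 0, and at so dim a probe set a difference can be understated.

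Qsox1, which makes disulfide bonds in the Golgi and outside the cell and does not need an isomerase partner, gave 5.96, 6.39 and 6.70 in N and 6.41, 6.57 and 6.63 in NF. All NF values lay within the range of N, whose lowest value was replicate 1. The change was 0.18 (SE 0.19, limma adjusted p = 0.764, 95% interval −0.27 to 0.63).

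**Figure D2:**
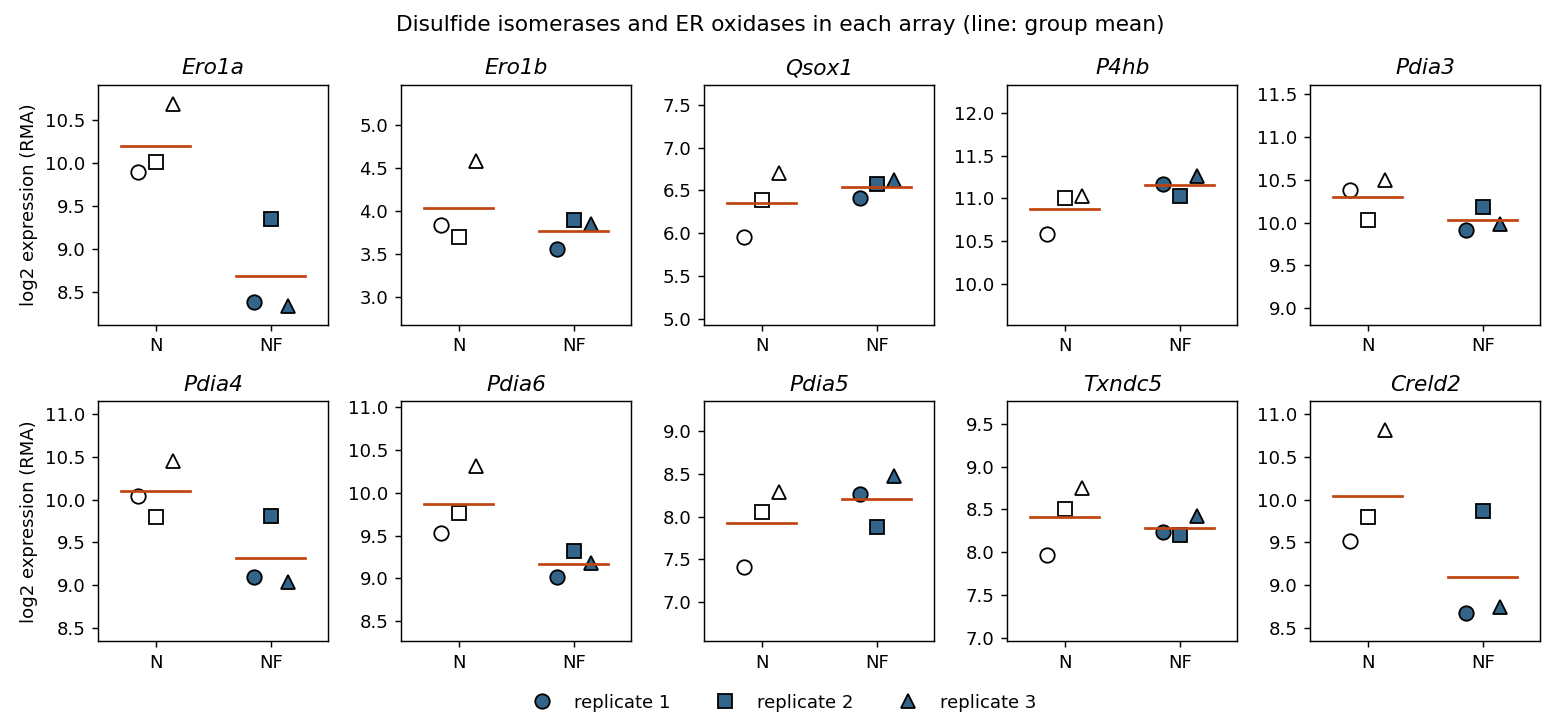
Each panel shows 1 gene with its log2 expression (vertical axis, every panel spanning the same number of log2 units) in the 3 N arrays (open) and the 3 NF arrays (filled), with the replicate number as the symbol and the group mean as a line. Ero1a and Pdia6 have every NF array below every N array, P4hb has every NF array above, and the other 7 genes overlap. Of all genes, 9.70% have every NF array below and 10.5% every NF array above.

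Among the isomerases the means differed in direction. Pdia4 and Pdia6 had lower means in NF, Pdia3 a smaller difference in that direction, and P4hb and Pdia5 had higher means. Pdia4, an isomerase with more than the usual number of active domains, had values of 10.05, 9.80 and 10.45 in N and 9.10, 9.81 and 9.04 in NF. NF replicate 2 reached the level of N replicate 2, while the other NF arrays lay below all N arrays. Pdia4 had a mean of 10.10 ± 0.33 across the N arrays and 9.32 ± 0.43 across the NF arrays (SD, n = 3 each), a change of −0.78 (SE 0.25), or 1.72-fold lower, with a limma adjusted p of 0.190. Its 95% interval was −1.35 to −0.22.

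Pdia6, an isomerase that binds the chaperone BiP and can restrain the UPR sensor IRE1, had values of 9.53, 9.76 and 10.32 in N and 9.02, 9.32 and 9.18 in NF. The groups did not overlap, as in 9.70% of all genes with NF lower, and NF replicate 2 was only slightly above the other NF arrays. The mean was 9.87 ± 0.40 across the N arrays and 9.17 ± 0.15 across the NF arrays (SD, n = 3 each), a change of −0.70 (SE 0.21, limma adjusted p = 0.166), or 1.62-fold lower, with an interval of −1.18 to −0.22. Without N replicate 1 the adjusted p from limma was 0.0282, and after a further quantile normalization it was 0.0343. It was 0.547 without NF replicate 1 and 0.479 without NF replicate 3, and without N replicate 3 the change was −0.47 (limma adjusted p = 0.247).

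Pdia3, which works with calnexin and calreticulin on glycoproteins, had values of 10.37, 10.03 and 10.50 in N and 9.91, 10.19 and 9.98 in NF. NF replicate 2 lay above N replicate 2, so that the groups overlapped. The change was −0.28 (SE 0.16, limma adjusted p = 0.538, 95% interval −0.65 to 0.09).

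P4hb, the founding protein disulfide isomerase and also the beta subunit of collagen prolyl 4-hydroxylase, had values of 10.58, 11.00 and 11.03 in N and 11.17, 11.03 and 11.27 in NF. The groups did not overlap, as in 10.5% of all genes with NF higher, but NF replicate 2 and N replicate 3 were nearly equal. The mean was 10.87 ± 0.25 across the N arrays and 11.16 ± 0.12 across the NF arrays (SD, n = 3 each), a change of 0.28 (SE 0.16, limma adjusted p = 0.526, 95% interval −0.09 to 0.65). The lowest value by far was N replicate 1, the array that stood apart, and over the alternatives the change ran from 0.14, without that array, to 0.36.

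Pdia5 had values of 7.41, 8.06 and 8.29 in N and 8.27, 7.87 and 8.48 in NF. Like P4hb it was lowest in N replicate 1, and the groups overlapped, with a change of 0.29 (SE 0.25, limma adjusted p = 0.705, 95% interval −0.29 to 0.86). Without N replicate 1 the change of Pdia5 was 0.03. Txndc5, also known as ERp46, had values of 7.97, 8.50 and 8.75 in N and 8.23, 8.20 and 8.42 in NF. All 3 NF values lay within the range of N, and the change was −0.12 (SE 0.20, limma adjusted p = 0.857, 95% interval −0.59 to 0.35).

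Creld2, an ER stress-inducible protein with isomerase activity, had values of 9.52, 9.80 and 10.82 in N and 8.67, 9.86 and 8.74 in NF. NF replicate 2 exceeded N replicates 1 and 2, and the spread within each group was the widest of the 10 genes. The mean was 10.04 ± 0.68 across the N arrays and 9.09 ± 0.67 across the NF arrays (SD, n = 3 each), a change of −0.95 (SE 0.41, limma adjusted p = 0.363), or 1.94-fold lower, with an interval of −1.89 to −0.02. Across the alternatives the change ran from −1.60 to −0.57, the latter without N replicate 3.

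The genes shared a pattern between arrays that the group labels do not give. N replicate 3 was the highest N array for 10 of the 10 genes, against 43.9% of all genes. The average of the 10 genes, each taken as the log2 difference from its own mean over the 6 arrays, was 0.60 in N replicate 3 and 0.09 and −0.10 in N replicates 2 and 1. Among NF arrays, replicate 2 was highest for 6 of the 10 genes, Ero1a, Ero1b, Pdia3, Pdia4, Pdia6 and Creld2, against 24.8% of all genes. N replicate 1 was the lowest N array for 7 of the 10 genes, against 45.2%. The part these arrays play in the differences between groups was not tested beyond leaving each out.

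**Figure D3:**
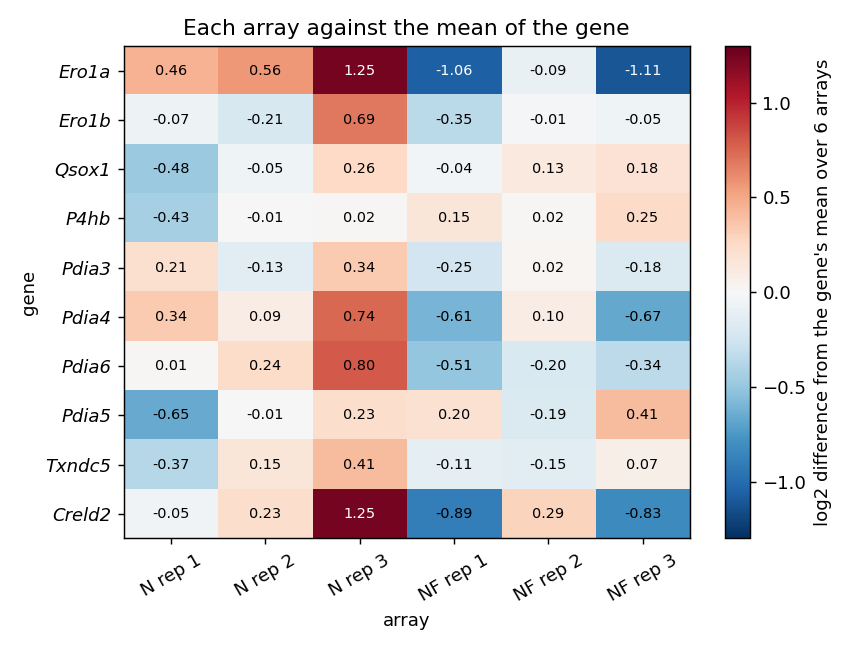
Each cell gives the log2 difference of 1 gene (row) in 1 array (column) from the mean of that gene over the 6 arrays, with red for higher and blue for lower. Ero1a, Pdia4, Pdia6 and Creld2 are highest in N replicate 3 and lowest in NF replicates 1 and 3, while P4hb, Pdia5 and Qsox1 are lowest in N replicate 1.

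Over the 6 arrays, as a description of arrays that share their treatment groups, Ero1a went together with Pdia4 (Pearson r = 0.972), Pdia6 (r = 0.933) and Creld2 (r = 0.931). P4hb went with Pdia5 (r = 0.936) and Qsox1 (r = 0.823) and against Ero1a (r = −0.566). P4hb, Pdia5 and Qsox1 were each lowest in N replicate 1, the array that stood apart, and the correlations without it were not computed. Among all genes with a mean at or above the dim bound, those whose values over the 6 arrays were most like Ero1a were Maz, a zinc finger transcription factor (r = 0.997), Gtpbp4, a factor of ribosome assembly (r = 0.997), and Myc, the growth-promoting transcription factor (r = 0.996). Myc fell by 1.35 on the log2 scale (limma adjusted p = 0.0447), a call that was lost when N replicate 2 or 3 or NF replicate 1 or 3 was left out, with a limma adjusted p of 0.0787 to 0.239. Maz had a difference of −0.25 (limma adjusted p = 0.441) and Gtpbp4 one of −0.62 (limma adjusted p = 0.132), neither past the threshold.

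Of 26 other genes of oxidative folding, all measured, 1 fell, 0 rose and 25 did not pass the test. The median change was 0.01, and it was −0.01 after a further quantile normalization, −0.03 after centring and −0.04 without N replicate 1. The 1 that fell was Selenos, a selenoprotein of ER-associated degradation, from 7.41 to 6.61 (change −0.80, limma adjusted p = 0.0395). It kept its call when N replicate 1 was left out and lost it when any other single array was left out, the adjusted p from limma then lying between 0.0552 and 0.216. The next by p were Tmx3, a membrane-bound isomerase (0.46, limma adjusted p = 0.119), and Vkorc1, which reduces vitamin K and can oxidise isomerases (0.52, limma adjusted p = 0.162). At an unadjusted p under 0.05 limma marked 6 of the 26, where 13.8% of all genes were marked. Of these 6, Selenos alone had a lower mean in NF, and the rest had higher means.

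Partners of the isomerases were also mixed. Of 13 measured of 15 listed, 1 rose and 12 did not reach the threshold. The median change was 0.06, and −0.05 without N replicate 1, when 8 of the 13 had lower means in NF. P4ha3, an alpha subunit of collagen prolyl 4-hydroxylase that pairs with P4hb, rose from 5.95 to 7.72 (change 1.77, limma adjusted p = 0.0162). Its values were 5.57, 6.46 and 5.81 in N and 7.91, 7.38 and 7.86 in NF, so the groups lay well apart, but the call was lost when N replicate 3, NF replicate 1 or else NF replicate 3 was left out (limma adjusted p = 0.0585, 0.112 and 0.128). The other alpha subunits P4ha1 and P4ha2 had differences of 0.41 and 0.43 (limma adjusted p = 0.391 and 0.580). Hspa5, which encodes the chaperone BiP, had a difference of −1.35 (limma adjusted p = 0.0862) and Hsp90b1, the chaperone GRP94, one of −0.63 (limma adjusted p = 0.217).

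UPR sensors and factors formed the list with the most calls. Of 19 measured of 22 listed, 7 fell, 0 rose and 12 stayed short of the threshold, and the median change was −0.98. Over all genes 0.720% fell and the median was −0.03. Those that fell were the transcription factors and regulators Nupr1 (−1.37), Atf3 (−3.29), Ddit3 (−2.83) and Trib3 (−3.07), and the ER proteins Herpud1 (−2.01), Sdf2l1 (−1.90) and Dnajc3 (−0.70), with limma adjusted p between 0.00925 and 0.0451. The genes of 3 UPR factors named above did not pass the test, with differences of −1.18 for Atf6, −0.51 for Xbp1 and −0.98 for Atf4 (limma adjusted p = 0.194, 0.266 and 0.0869). Nor did those of the sensors Ern1 (−0.65), Eif2ak3 (0.16) and Atf6b (−0.12), with limma adjusted p of 0.363, 0.774 and 0.829. The 7 calls thus held no UPR sensor. Ddit3, which encodes CHOP, had values of 10.59, 10.50 and 11.11 in N and 7.25, 9.31 and 7.15 in NF, with NF replicate 2 nearest to N as for Ero1a, Pdia4 and Creld2. The average of this list, as differences from each gene's mean, was 0.36, 0.43 and 0.89 in N and −0.81, −0.07 and −0.80 in NF. The count of calls was 0 without NF replicate 1 and 0 without NF replicate 3 (limma, with 10 genes at an unadjusted p under 0.05 in each case), 3 without N replicate 3 and 4 without N replicate 2, and it was 2 when the labels' replicate numbers entered as a block. In the same fits without NF replicate 1 and without NF replicate 3, only 1 and 2 genes of all 16797 were called.

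Since Ero1a is known as a gene raised by low oxygen, other targets of the hypoxia-inducible factor HIF were listed as well. Of 21 measured of 22 listed, 1 rose, 2 fell and 18 did not pass the test, with a median change of 0.34. Of all genes 1.83% rose and 0.720% fell. P4ha1 and P4ha2 are in this list as well as among the partners. At an unadjusted p under 0.05 limma marked 9 of the 21, where 13.8% of all genes were marked. Of these 9, Adm and Ndrg1 alone had lower means in NF. The groups did not overlap for 8 of the 21 with NF higher and 2 with NF lower, against 10.5% and 9.70% of all genes. The median was 0.20 after a further quantile normalization and 0.08 without N replicate 1, when 10 of the 21 had lower means in NF. Egln3, an oxygen-sensing prolyl hydroxylase, rose by 0.87 (limma adjusted p = 0.0338). Adm, the vasodilator peptide adrenomedullin, fell by 1.14 (limma adjusted p = 0.0215) and Ndrg1, a stress-responsive gene, fell by 1.00 (limma adjusted p = 0.0445). All 3 calls were lost when N replicate 3 or any 1 of the NF arrays was left out, each of which gave 0 calls in the list (limma, 8 to 11 genes at an unadjusted p under 0.05).

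**Figure D4:**
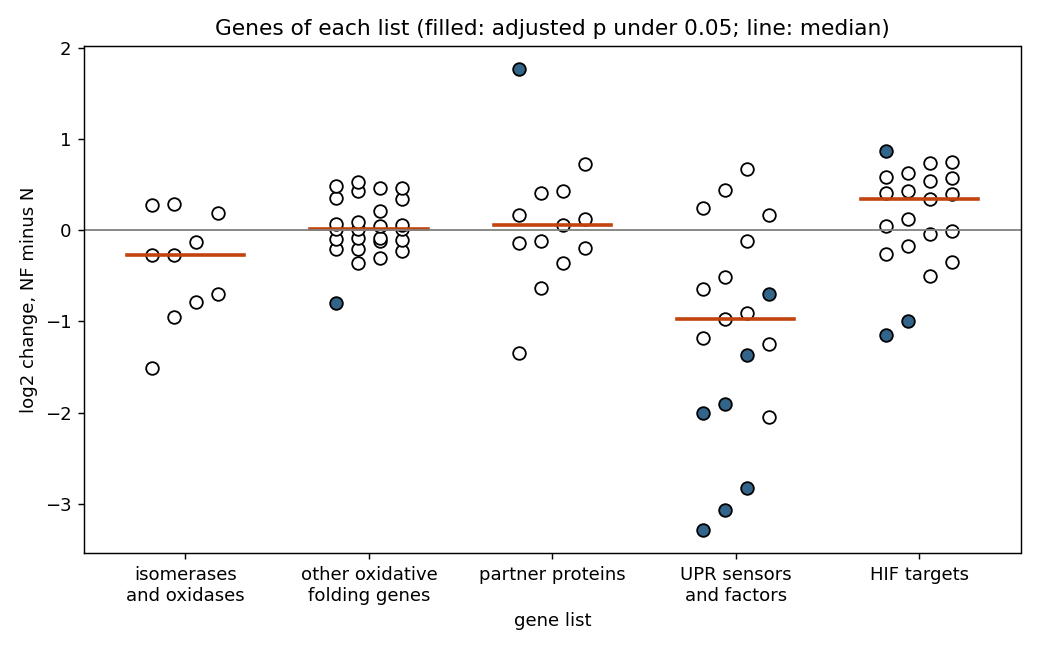
Each circle is 1 gene's log2 change NF minus N (vertical axis) in 5 lists, filled where the limma adjusted p is under 0.05, with the median as a line. P4ha1 and P4ha2 are drawn in both the partner list and the HIF list. The 10 isomerases and oxidases have no filled circle and a median of −0.28, the UPR list has 7 filled circles, all below 0, and the medians of the other lists lie between 0.01 and 0.34 with all 6 arrays, and between −0.05 and 0.08 without N replicate 1.

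**Figure D5:**
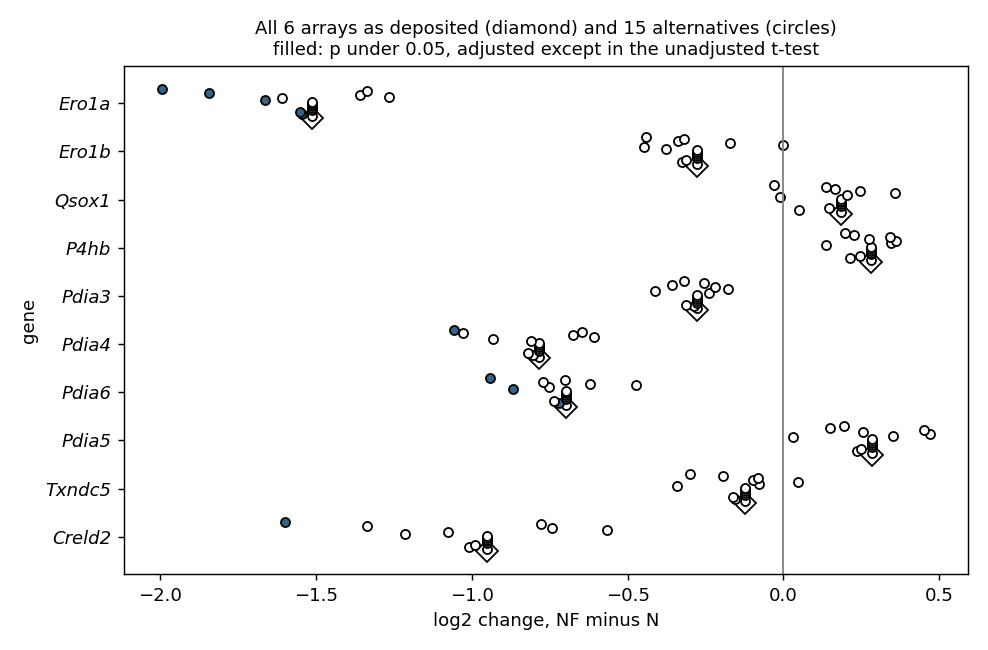
For each gene the diamond is the log2 change NF minus N (horizontal axis) with all 6 arrays as deposited and the circles are 15 alternatives, filled where p is under 0.05 (adjusted, except in 1 alternative, the methods' test without adjustment). Ero1a, Pdia3, Pdia4, Pdia6, Creld2 and Ero1b stay below 0 and P4hb and Pdia5 above 0, though Ero1b without N replicate 3 (−0.0015) and Pdia5 without N replicate 1 (0.03) lie next to it, and Txndc5 and Qsox1 have circles on both sides.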

How the data were processed

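Total RNA of 6 NIH3T3 cultures was measured on Affymetrix gene arrays. The deposited values are on the log2 scale, summarised by the authors with RMA in the R package oligo. Its version, the release of the ENSEMBL annotation and the arrays normalized together are not given in the sources used here. Probe sets without an Entrez gene were removed by the authors. Of 22035 probe sets, 18197 pair with 1 gene symbol and were tested, 1260 with several symbols and 2578 not listed were left out. The groups were compared by limma 3.58.1 under R 4.3.3 (lmFit, eBayes), with Benjamini-Hochberg adjustment over the 18197 and a threshold of 0.05. The paper also names limma for differential expression, and the t-test among the alternatives comes from its general statistics. Where a gene had several probe sets, that of lowest p stood for it. The scripts were tested on simulated data. The number of arrays, 3 in each group, limits the precision, and how far the replicates were independent cultures is known only from the labels.

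The members and lists were chosen with earlier results of these data known. Named are all members, the called genes of each list (at least 3, by lowest p) and the 3 genes most correlated with the member of lowest p. Added after their values were seen were P4ha1, P4ha2, Atf4, Atf6, Atf6b, Xbp1, Ern1, Eif2ak3 and marker genes. The 15 alternatives were a replicate block, quantile normalization again, centring, leaving out dim probe sets, the brightest probe set, trend and robust options, the methods' t-test with and without adjustment, each array left out, and N replicate 1 with NF replicate 2 left out.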

Additional observations from a re-analysis of the deposited data

How the results depend on the processing

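With 3 arrays a group, even a change of −1.51 (SE 0.31), that of Ero1a, did not pass the adjusted threshold, and dim probe sets, such as that of Ero1b, are limited by signal over background. For the 10 isomerases and oxidases, 133 of 150 values under the alternatives kept direction and side of the threshold, 14 passed it newly and 3 reversed. These were Txndc5 without N replicate 3 (0.0477, leave-one-out range −0.3428 to 0.0477), and Qsox1 without N replicate 1 (−0.0120, range −0.0120 to 0.3591) and with both N replicate 1 and NF replicate 2 left out (−0.0305). For the 19 other genes named by the rule, 199 of 285 values kept both, 73 lost the call, 13 gained it and 0 reversed. Both counts take the methods' t-test without adjustment at an unadjusted p under 0.05. It gave gains to Pdia6, Ero1a, Hspa5 and Gtpbp4, and the only gain to Tmx3, Vkorc1 and Maz. With 1 probe set, a gene's log2 change is fixed by construction under the block, dim and brightest probe set, trend and robust, and t-test alternatives. Those could not reverse its direction. The replicate numbers did not pair the arrays. In the check of pairing the correlations were −0.0748, −0.0780 and −0.0736 between same-numbered arrays. Between N and NF arrays of different numbers they ran from −0.0387 to 0.1423. They are not correlations of the log2 values themselves, which were 0.969, 0.992 and 0.982 between same-numbered arrays. The replicate block left 0 calls among the 10 genes, 0 among other oxidative folding genes, 0 among partners, 2 among UPR factors and 0 among HIF targets (limma, with 4, 4, 4, 15 and 9 at an unadjusted p under 0.05), and 80 against 428 over all genes. Quantile normalization again gave 2 calls among the 10 genes (Ero1a and Pdia6), 2 among partners, 5 among HIF targets and 870 over all genes. Centring gave 1 call among the 10 genes (Ero1a) and 478 over all genes. Leaving out dim probe sets gave 1 (Ero1a), 2 among partners and 507 over the 8307 genes left, and trend with robust gave 1 (Ero1a), 2 among partners, 0 among other oxidative folding genes (5 unadjusted) and 450 over all genes. By the methods' t-test there were, unadjusted, 2 among the 10 genes, 6 among oxidative folding genes, 2 among partners and 9 among HIF targets, and after Benjamini-Hochberg 0 in each of these and 0 among UPR factors (9 unadjusted), with 1 gene called of all 16797. Dropping N replicate 1 together with NF replicate 2, which were picked with earlier results known, gave 4 among the 10 genes (Ero1a, Pdia4, Pdia6 and Creld2), 3 among partners, 13 among UPR factors and 1038 over all genes. Leaving out 1 array gave 0 to 2 calls among the 10 genes (2 without N replicate 1, 1 without NF replicate 2), 0 to 1 among oxidative folding genes, 0 to 2 among partners, 0 to 9 among UPR factors and 0 to 4 among HIF targets, and from 1 gene (without NF replicate 1) to 922 genes (without N replicate 1) over all genes. The cause of these shifts was not tested, beyond the fewer arrays or probe sets that an alternative holds by its construction.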
